A study of Nicotiana tabacum with 12 samples.

Results

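Leaves of the *DcLCYB1*-expressing tobacco line L16 were compared with leaves of line L14, and every gene that differed between them was then placed relative to the wild type. The comparison rests on 6 of the 12 libraries of the series, 3 of L16 and 3 of L14, chosen by their labels. The 3 wild type libraries were used for the placement, and the 3 libraries of line L15 stand beside them as a further level. All plants were *Nicotiana tabacum* cultivar Xanthi NN, raised from seeds on MS medium with sucrose and kanamycin, and RNA was taken from leaves of 5-week-old plants. The lines carry the carrot gene *DcLCYB1* and the wild type does not. The growth label gives the lines as the T4 generation and the extraction label gives T3. Each line is a single line of plants, so a difference between L16 and L14 is a difference between these lines. The promoter of the transgene and the number of insertions are not given in the sources used here. The labels call the 3 samples of a genotype biological replicates, and do not say whether each came from its own plant. Genes carry NiTAB identifiers without names in the deposited counts, and 0 of 35519 identifiers were found in the RefSeq gene table of tobacco. The mapping of identifiers to Arabidopsis genes that the study made was not used here. The leaf was therefore not checked against marker genes, gene functions are not stated, and 4 identifiers are printed in all. Other genes are described by their values.

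Lycopene β-cyclase closes the β-rings at the ends of the linear carotenoid lycopene and so forms β-carotene, in the plastid. β-carotene and the xanthophylls made from it take part in light harvesting and in the protection of the photosystems, and some xanthophylls are precursors of the hormone abscisic acid. Carotenoids, gibberellins and the phytol tail of chlorophyll are all built from the same plastid isoprenoid precursors.

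The counts assigned to genes spanned 14.5 to 22.7 M in L14 libraries, 16.8 to 18.2 M in L16 libraries, 12.9 to 24.3 M in wild type libraries, and 13.0 to 21.1 M in L15 libraries. The ranges of L14 and L16 overlapped (two-sided exact permutation test over 20 splits, p = 0.7). Reads outside genes made up 34.9% ± 0.483 in L14 and 34.5% ± 1.02 in L16 (SD, n = 3 each, exact permutation p = 0.6). The smallest p this design allows is 0.1, so neither test could have passed 0.05. In the wild type libraries, used for the placement, reads outside genes made up 38.1%, 37.5%, and 35.6%. All of these lay above every library of L14 and L16, which reached at most 35.4%. Of 62 spike-in sequences, RNAs added to the samples and not made by the plant, 0 differed between L16 and L14 at an adjusted p under 0.05 in edgeR's quasi-likelihood test and 1 did at an unadjusted p under 0.05. Against the wild type, 8 spike-in sequences differed in L14 and 7 in L16 (24 and 26 at an unadjusted p under 0.05), so the wild type libraries stand apart from the lines in RNAs that are not of the plant. In bulk leaf RNA, fewer cells of a type and less RNA per cell cannot be told apart.

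Line L16 differed from L14 in 326 of 18823 tested genes (1.73%), called where the Benjamini-Hochberg adjusted p of edgeR's quasi-likelihood test was under 0.05. Of these, 218 genes (1.16% of those tested) were higher in L16 and 108 (0.574%) were lower. Taking only differences of at least 1 on the log2 scale, 185 genes (0.983%) remained. The 218 higher genes had a median log2 fold change (L16 minus L14) of 1.33, and 140 of the 218 reached at least 1 and 49 at least 2. The genes that were lower in L16 had a median log2 fold change of -0.91, and 45 of the 108 reached an absolute value of at least 1 and 7 at least 2. The median absolute log2 fold change over all tested genes was 0.27, and their median signed value was near 0, at -0.0025. The smallest absolute difference that was called was 0.49. Just inside the threshold the adjusted p was 0.0493, just outside it was 0.0506, and a further 331 genes lay between an adjusted p of 0.05 and 0.1.

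The L14 and L16 libraries did not overlap in any of the 326 called genes, a state found in 20.2% of all tested genes. The median SD of log2 CPM (CPM, read counts scaled to the size of the library with TMM factors) within L14 was 0.26 for the genes higher in L16, 0.18 for those lower, and 0.26 for all tested genes. Within L16 the corresponding values were 0.25, 0.21, and 0.30.

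Calls came from every level of expression, but more often from genes with many reads. Of the 2945 tested genes with a mean log2 CPM of 0 or lower, 7 were called (0.238%), and of the 535 genes above 8, 20 were called (3.74%). The size went the other way, with a median absolute log2 fold change among called genes of 5.09 in the lowest class and 0.86 in the highest. The smallest absolute log2 fold change called was 2.65 in the lowest class and 0.56 in the highest.

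The most abundant of the genes that were higher in L16 had 1175, 1088, and 1245 CPM in the L14 libraries and 2105, 2340, and 2335 CPM in the L16 libraries. The log2 fold change was 0.95 ± 0.14 (SE, adjusted p = 0.0028). The wild type lay between the lines, at 1561, 1421, and 1739 CPM. The other genes among the 5 most abundant of this group had mean levels between 552 and 1161 CPM in L14 and between 929 and 2079 CPM in L16. Among the 5 most abundant genes that were lower in L16, 4 were also called lower in L16 than in the wild type. The steepest of these had 172.9, 162.1, and 299.0 CPM in L14 and 66.0, 55.2, and 100.2 CPM in L16, while the wild type libraries held 572, 711, and 530 CPM. This gene fell from the wild type to L14 and again from L14 to L16 (L16 minus L14, log2 fold change -1.52 ± 0.26, SE, adjusted p = 0.0068).

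Summed over the genes, the 218 higher genes took 1.25% ± 0.101 of the gene counts in L14 and 2.51% ± 0.300 in L16 (SD, n = 3 each). The same genes took 1.08% ± 0.0552 in the wild type and 1.42% ± 0.0660 in L15 (SD, n = 3 each). The 108 lower genes took 0.667% ± 0.0395 in L14 and 0.358% ± 0.0441 in L16, against 0.831% ± 0.117 in the wild type and 0.568% ± 0.0514 in L15 (SD, n = 3 each). The genes were chosen for the difference between L14 and L16, so these sums are a description. The wild type and L15 libraries were not part of that difference, although they entered the estimate of the spread.

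**Figure D1:**
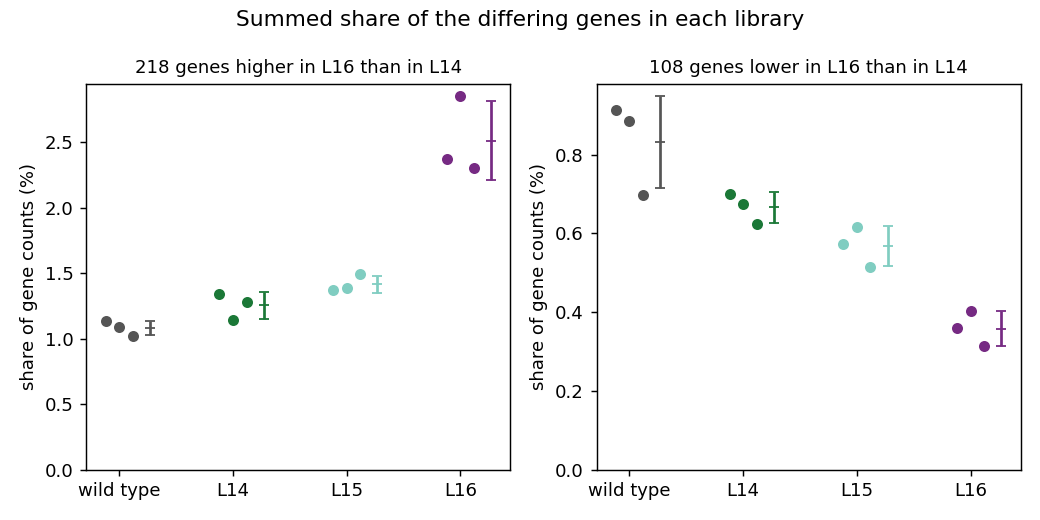
Share of all gene counts, in percent, held by the 218 genes that were higher (left) and the 108 genes that were lower (right) in L16 than in L14. Each point is a library, and the bar beside the points is the mean ± SD of the 3 libraries. In the left panel the L16 libraries lie between 2.31% and 2.86% and all others at 1.49% or lower, and in the right panel the wild type has the highest mean and the L16 libraries lie lowest.

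Relative to the wild type, most of the differing genes had moved farther in L16 than in L14. In 224 of the 326 genes (68.7%), L14 and L16 deviated from the wild type in a common direction and L16 lay farther out. In 94 genes (28.8%), the lines lay on opposite sides of the wild type. In 7 genes (2.15%), L16 deviated in the direction of L14 but lay closer to the wild type, and 1 gene with 0 counts in the wild type and in L14 was left unplaced. Over all 18823 tested genes, the same placement gave 51.4% farther, 19.2% on the other side, and 29.3% back towards the wild type. The L14 libraries enter both the difference from L16 and the placement, and a gene close to the wild type in L14 falls on one side or the other by little, so the placement is given as a description with no test. The percentage of spike-in counts held by SIRV4 and SIRV7 was lower in the wild type libraries (6.86% to 7.13%) than in those of L14 and L16 (8.30% to 10.6%). With it as a covariate, 430 of 599 called genes were farther, 16 back towards, and 152 on the other side. The share did not overlap between the wild type and these lines, so its effect cannot be told apart from that of genotype. This placement is therefore no check on the spike-in difference.

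**Figure D2:**
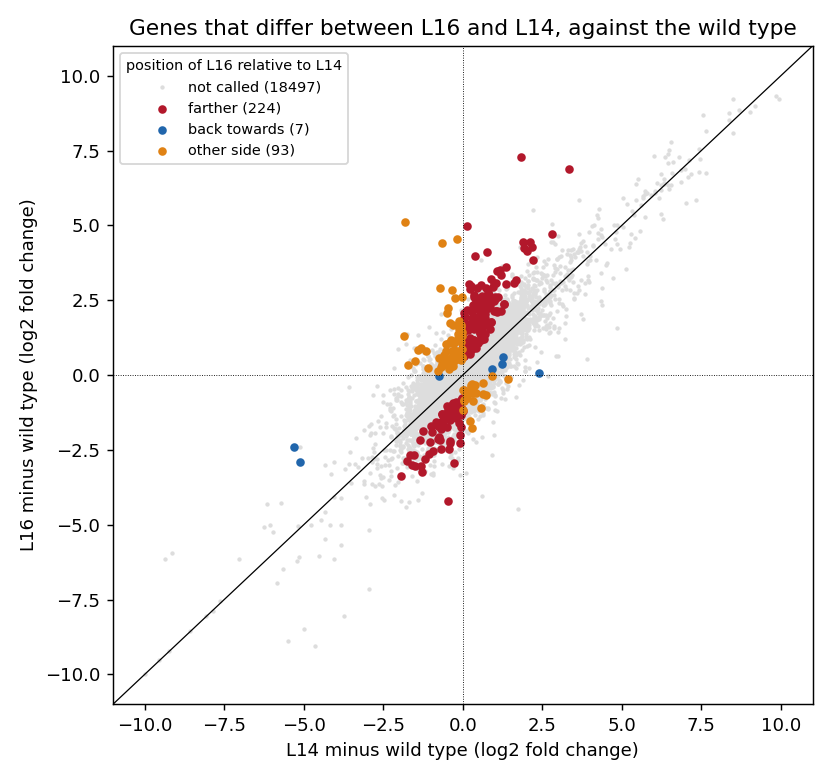
Log2 fold change against the wild type in L14 (horizontal axis) and in L16 (vertical axis) for every tested gene. Coloured points are the 326 differing genes, by position of L16, and grey points are the genes that did not pass the test. The diagonal marks equal change in both lines, and the 224 farther genes lie on the steep side of it, many of them near 0 on the L14 axis. The 2 genes with 0 counts in all libraries of a line are left out.

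The genes that were higher in L16 and farther from the wild type numbered 146. Their median log2 fold change against the wild type rose from 0.56 for L14 over 0.79 for L15 to 1.92 for L16. The genes that were lower and farther numbered 78, and their medians were -0.46 (L14), -0.80 (L15), and -1.47 (L16). In 109 of the 224 farther genes, L14 lay within 0.5 log2 units of the wild type.

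Over all tested genes, 12.6% were called in L14 against the wild type (6.61% higher and 5.94% lower) and 27.2% in L16 (14.6% higher and 12.7% lower). Of the 62 spike-in sequences, 12.9% were called in L14 and 11.3% in L16 by the same test, scaled and adjusted among the spike-in sequences. The share of genes called was close to this in L14 and above it in L16. Since genes were scaled and adjusted apart from the spike-in sequences, these shares are not on one scale. The calls against the wild type are to be read beside those of RNAs that are not of the plant. Among the 326 genes, 216 (66.3%) were called against the wild type in L16 and not in L14, 77 (23.6%) in both lines, 14 (4.29%) in L14 and not in L16, and 19 (5.83%) in neither. These comparisons share the wild type libraries with each other and the line libraries with the L16 and L14 comparison. The position of the libraries gave the same order. The L14 libraries overlapped the wild type libraries in 184 of the 326 genes (56.4%, against 68.2% of all tested genes), and the L16 libraries overlapped them in 25 (7.67%, against 61.2%). All L16 libraries lay above all wild type libraries in 201 of the 218 higher genes, and below them in 96 of the 108 lower genes, beside 19.7% and 19.1% of all tested genes.

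The 216 genes called in L16 and not in L14 were the main class. Among them, 104 were higher and farther, with median log2 fold changes against the wild type of 0.37 in L14 and 1.85 in L16. A further 50 were lower and farther, with medians of -0.31 and -1.21. Of the rest, 61 lay on the other side of the wild type in L16, 44 of them higher (medians of -0.19 in L14 and 1.14 in L16) and 17 lower (0.24 and -0.77), and 1 was the unplaced gene. In this class the L14 medians lay within 0.5 log2 units of the wild type on either side, and the L16 medians lay beyond it. The class was chosen by a call in L16 and none in L14, so this order follows from the choice and is a description.

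In 70 of the 77 genes called in both lines, L14 and L16 had changed in the same direction and L16 farther. Of these, 42 were higher than in the wild type, and their medians were 0.89 (L14), 1.20 (L15), and 2.12 (L16), and 28 were lower, with medians of -0.91, -1.13, and -1.79. The log2 change in L14 was 46.0% of that in L16 at the median of the 42 genes (range 26.4% to 59.6%) and 47.9% at the median of the 28 genes (range 35.8% to 66.8%). The ceiling of these ranges follows from the choice of genes, since a gene with near-equal change in both lines could not be called between them. The floor is bounded as well, since a gene with a small change in L14 could not be called there against the wild type. The medians are therefore a description of the chosen genes.

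Of the 94 genes on the other side of the wild type, 4 were called in both lines, lower than the wild type in L14 and higher than it in L16. The steepest of them had 22.5, 19.3, and 35.6 CPM in L14 and 163.1, 313.6, and 208.5 CPM in L16. The wild type lay between them, at 103.0, 99.1, and 74.9 CPM, with no overlap on either side, and L15 lay with L14 at 19.6, 14.4, and 31.6 CPM. The log2 fold change was -1.84 ± 0.29 in L14 and 1.31 ± 0.28 in L16 against the wild type (SE, adjusted p = 0.00078 and 0.0031), and 3.14 ± 0.30 between L16 and L14 (SE, adjusted p = 0.00013). The next of the 4 genes had 58, 82, and 90 counts in L14, 146, 159, and 183 in the wild type, and 291, 475, and 230 in L16. For the remaining members of this class the difference between the lines was smaller, with log2 fold changes of 0.90 and 0.74. By library, 9 genes had all L14 libraries below and all L16 libraries above the wild type, and 4 genes had the opposite order. Over all tested genes the same orders were found in 17 (0.0903%) and 20 (0.106%). The other 90 genes of this placement lacked a call in at least 1 line, and in 69 of the 94 L14 lay within 0.5 log2 units of the wild type.

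The 7 genes that lay closer to the wild type in L16 than in L14 were 3 higher and 4 lower in L16 than in L14. In 2 of those higher, every line was below the wild type. A gene with 93, 254, and 150 counts in the wild type had 5, 6, and 3 counts in L14 and 41, 56, and 5 counts in L16, and another with 199, 438, and 253 counts in the wild type had 7, 8, and 15 in L14 and 42, 72, and 14 in L16. L16 was thus far below the wild type in both, and the third L16 library was close to L14 in each (adjusted p of 0.040 and 0.043 between the lines). In 4 of the 7 genes L16 was within 0.5 log2 units of the wild type. One of these, with the largest difference of the 4 lower genes, had 135, 187, and 180 counts in L14, 26, 35, and 28 counts in L16, and 29, 23, and 28 counts in the wild type. Its log2 fold change was 2.41 ± 0.28 in L14 against the wild type (SE) and -2.35 ± 0.28 in L16 against L14 (SE, adjusted p = 0.00046), and L15 lay near the wild type with 56, 52, and 20 counts. In all, 14 genes were called against the wild type in L14 and not in L16, 8 of them higher and 6 lower in L16 than in L14.

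The following 4 identifiers were printed by rule, as those with the largest difference in 4 of these classes among genes with a mean of at least 50 counts in both lines, a pool of 262 genes. Nitab4.5_0000786g0230, higher in L16 and farther from the wild type, had 94, 50, and 59 counts in L14 and 1784, 2961, and 927 counts in L16. The wild type had 74, 42, and 41 counts and L15 had 53, 45, and 134, so the 3 L16 libraries stood alone above all others. In CPM the means were 3.70 ± 1.90 in L14, 105.1 ± 44.8 in L16, and 3.41 ± 2.00 in the wild type (SD, n = 3 each). The difference between L16 and L14 was 28.9-fold (log2 fold change 4.85 ± 0.56, SE, adjusted p = 0.00046), and L14 did not differ from the wild type beyond the spread (0.14 ± 0.57, adjusted p = 0.90). It counted as farther by this small L14 value alone.

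Nitab4.5_0000477g0010, higher in L16 and back towards the wild type, had 25.5, 29.4, and 31.0 CPM in L14 and 43.3, 42.3, and 55.6 CPM in L16. The wild type held 43.4, 48.2, and 51.1 CPM and L15 43.0, 37.7, and 53.5 CPM, so that L14 was the line that stood apart. L14 was lower than the wild type by 0.73 ± 0.16 on the log2 scale (SE, adjusted p = 0.0068), and L16 differed from the wild type by -0.017 ± 0.16 (adjusted p = 0.95). The difference between L16 and L14 was 1.64-fold (log2 fold change 0.72 ± 0.16, SE, adjusted p = 0.030). It was close to the threshold, and leaving out any of the 6 libraries of L14 and L16 brought the adjusted p to between 0.051 and 0.12.

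Nitab4.5_0000645g0140, lower in L16 and farther from the wild type, had 32.3, 68.8, and 71.1 CPM in L14 and 14.4, 10.3, and 12.7 CPM in L16. The wild type libraries were spread widely, at 24.1, 112.6, and 45.2 CPM, and all lay above L16, while L15 held 42.9, 36.7, and 35.5 CPM. The log2 fold change between L16 and L14 was -2.21 ± 0.42 (SE, adjusted p = 0.012), and L14 differed from the wild type by -0.078 ± 0.39 (SE, adjusted p = 0.92). Without L14 replicate 2 the adjusted p was 0.063, and without L16 replicate 2 it was 0.081.

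Nitab4.5_0003885g0100, lower in L16 and on the other side of the wild type, had 17.5, 25.0, and 23.5 CPM in L14 and 7.89, 6.33, and 8.49 CPM in L16. The wild type held 7.93, 8.38, and 8.33 CPM, at the level of L16. L15 held 24.1, 29.2, and 12.6 CPM, all above the wild type and L16, with the last library below every L14 library. The log2 fold change was -1.54 ± 0.25 between L16 and L14 (SE, adjusted p = 0.0043), 1.42 ± 0.25 in L14 against the wild type (SE, adjusted p = 0.0017), and -0.12 ± 0.25 in L16 against the wild type (SE, adjusted p = 0.76). The opposite side in L16 was thus within the error of the wild type level.

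**Figure D3:**
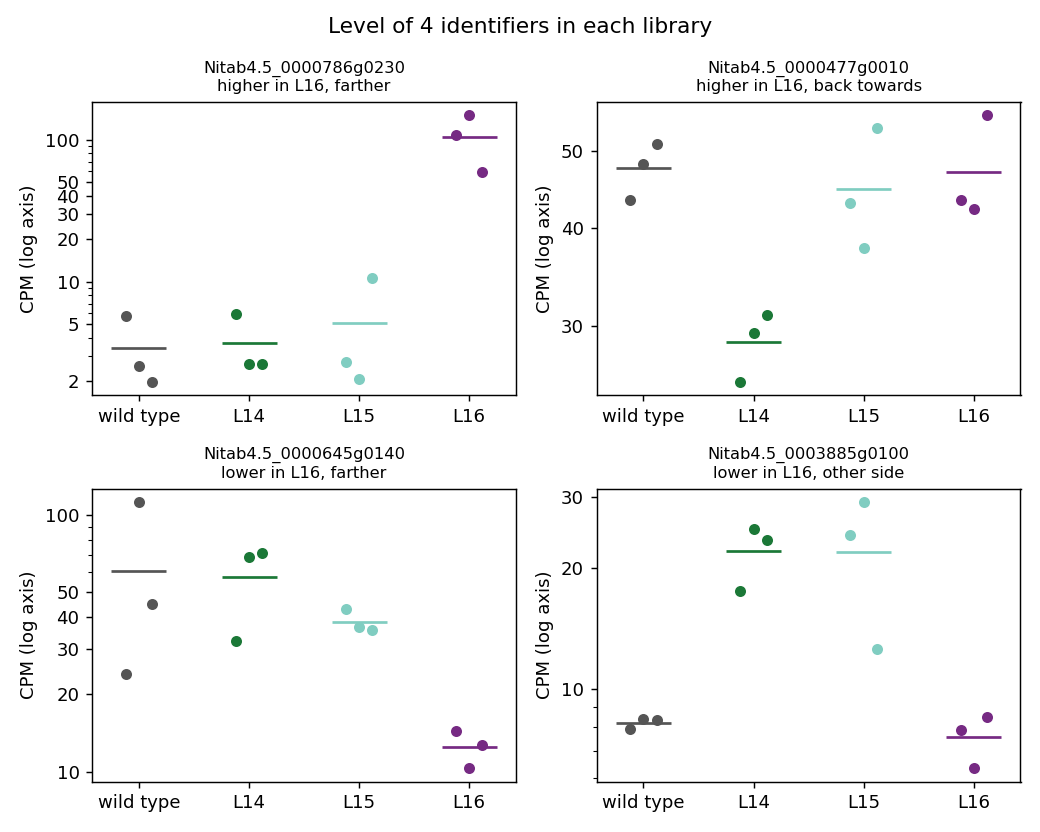
Level of the 4 printed identifiers in every library, in CPM on a log axis that differs between panels. Points are libraries, and lines are means of 3 libraries. L16 stands apart from the 3 other genotypes for Nitab4.5_0000786g0230 and Nitab4.5_0000645g0140, L14 stands apart for Nitab4.5_0000477g0010, and L14 and L15 stand above the wild type and L16 for Nitab4.5_0003885g0100.

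A few genes were detected in 1 line and not, or hardly, in the other. A gene with 0 counts in the 3 L14 and the 3 wild type libraries had 136, 194, and 131 counts in L16 and 78, 193, and 83 counts in L15. Taking 3 counts per library as the floor of detection, it was at least 55.1-fold higher in L16 than in L14 (adjusted p = 8.11e-05). A gene with 8, 16, and 16 counts in L14 had 0 counts in the L16 libraries and 13, 3, and 5 counts in the wild type, and was at least 3.91-fold lower in L16 (adjusted p = 0.034). With 217 higher and 107 lower genes counted in both lines, the largest log2 fold changes were 6.96 and -3.75. Apart from Nitab4.5_0000786g0230, the 4 genes counted in both lines with a log2 fold change of at least 4 had at most 6 counts in any L14 library and at most 4 in any wild type library, and from 13 to 90 counts in the L16 libraries. Their fitted values depend on few reads.

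Line L15 was not part of the difference by which the genes were chosen. Its libraries did enter the filter, the scaling, and the estimate of the spread, and without L15 replicate 1, 241 genes were called. L15 lay between L14 and L16 at the median of each group. Over the 218 higher genes, L14, L15, and L16 had median log2 fold changes against the wild type of 0.28, 0.55, and 1.55, and over the 108 lower genes it was -0.31, -0.52, and -1.21. The median of L15 minus L14 was 0.24 and that of L16 minus L15 was 0.94 for the higher genes, and for the lower genes -0.26 and -0.73. These comparisons share their line libraries, and a line outside the chosen difference tends to lie between the lines chosen to differ. Over all tested genes the median difference from the wild type was between 0.0045 and 0.017 in the 3 lines.

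The number of genes called depended on single libraries. Without L14 replicate 2, 86 genes were called between L16 and L14, without L14 replicate 3, 167, without L16 replicate 1, 186, and without L16 replicate 2, 114. Without wild type replicate 3, 542 were called. With DESeq2's Wald test, 777 genes were called, 317 of them among the 326. All 326 genes kept their direction in each of the 12 fits that left out a library. This was nearly fixed in advance, since the L14 and L16 libraries did not overlap in any of these genes. The share of called genes farther from the wild type was between 58.7% and 72.1% in 21 alternative settings that placed all called genes, and the share back towards it between 1.61% and 4.82%. Where only genes called against the wild type in both lines were placed, 70 of 77 were farther.

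**Figure D4:**
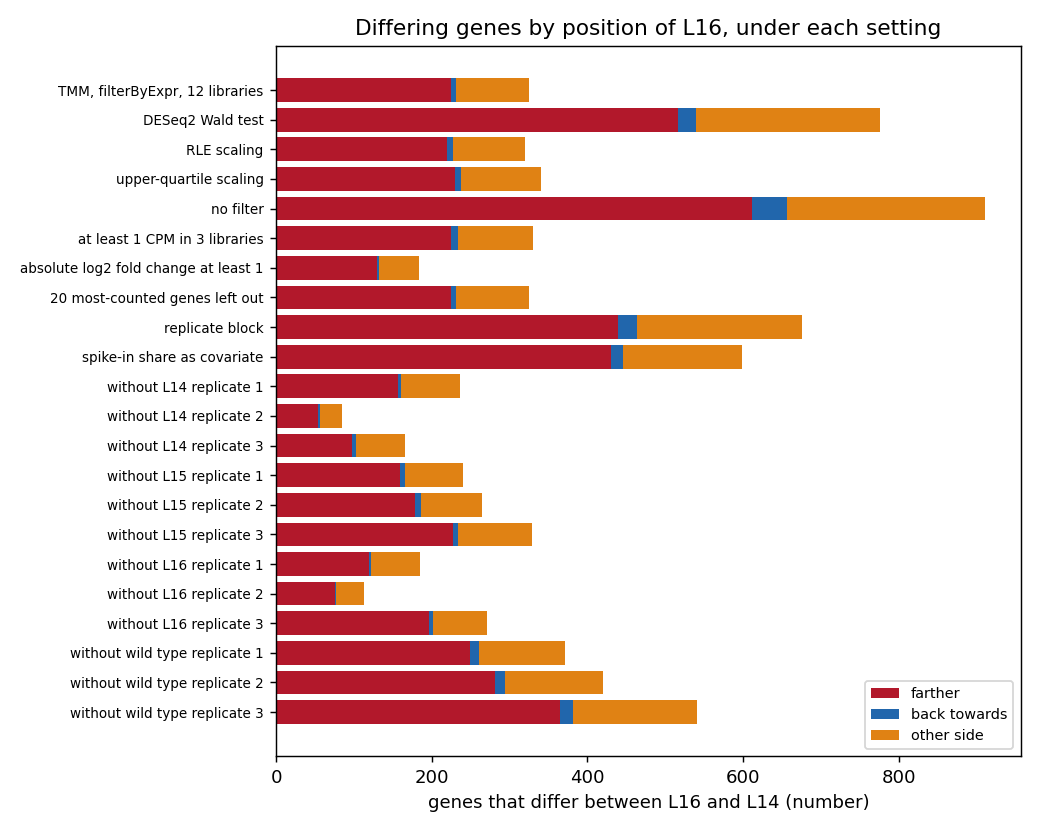
Number of genes that differed between L16 and L14 under each setting (horizontal axis), divided by the position of L16 relative to the wild type. The uppermost bar is the fit described in the text, with 326 genes. The total varies between 86 and 913, while the farther class makes up most of every bar.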

How the data were processed

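QuantSeq FWD 3' mRNA-Seq libraries, which read the ends of transcripts, were run together on one sequencer. Per the labels and methods, the authors aligned reads to NiTAB 4.5 with STAR, and they deposited unnormalized read counts for every gene, 1 file per library. The submitters' notes also name DESeq2, and versions, the counting program and its use of strand are not given in the sources used here. Alignments that were not unique stand in a summary line, so genes with a near-identical copy may be undercounted. The 99 spike-in rows and 5 summary rows were left out of library sizes and gene tests. Of all counts listed, 33.4% to 38.1% lay outside genes and 19.1% to 21.4% were not unique, and the spike-in counts came to 4.62% to 5.98% of the gene counts.

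Genes were tested with edgeR 4.0.16 in R 4.3.3 (quasi-likelihood test, TMM, filterByExpr with a minimum of 10 counts) in one model of 12 libraries with genotype as the factor, and p-values were adjusted by Benjamini-Hochberg. The SE was obtained from the log2 fold change and the F statistic. A gene was placed by the signs and sizes of its fitted log2 fold changes in L14 and L16 against the wild type. No pair of replicates agreed within counting noise, and p-values measure only the spread between these samples. A floor of 3 counts was 0.133 to 0.237 CPM and covers counting error only. Of the called, non-overlapping genes with a mean of at least 50 counts in both lines, the identifier with the largest change was printed in each of 4 classes of direction and placement. The members, the rule for identifiers and the alternatives were chosen with earlier results of these data known. Alternatives were DESeq2 1.42.0, other scalings, filters, a minimum fold change, the replicate block, a spike-in covariate, fewer libraries, and each library left out.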

Additional observations from a re-analysis of the deposited data

Results flagged for a closer look

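The change against the wild type differed between L16 and L14 in 326 genes by the test of the difference itself (edgeR's quasi-likelihood test, adjusted p under 0.05). This difference equals that between L16 and L14, since the wild type cancels, so these are the 326 genes above and not a further result. Among the printed identifiers, this difference was 4.85 on the log2 scale for Nitab4.5_0000786g0230, 0.72 for Nitab4.5_0000477g0010, -2.21 for Nitab4.5_0000645g0140, and -1.54 for Nitab4.5_0003885g0100. With 3 libraries per genotype, no library was tested as an outlier, but each was left out in turn. Leaving out wild type replicate 3 gave the most called genes, 542. In a chi-square of counts between replicates, per degree of freedom, its pairs gave 46.3 and 61.8, and all other pairs 37.0 or lower. It was also the library with the most gene counts, 24.3 M.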

How the results depend on the processing

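The counts are given in the order all, higher, lower, farther, back towards, and other side, which were 326, 218, 108, 224, 7, and 94. They were 777, 464, 313, 516, 24, and 236 with DESeq2's Wald test, 913, 569, 344, 612, 44, and 255 without a filter, 185, 140, 45, 129, 3, and 52 with an absolute log2 fold change of at least 1, and 599, 363, 236, 430, 16, and 152 with the share of SIRV4 and SIRV7 as a covariate. The causes were not tested, apart from the minimum fold change, which removes calls by construction. With both lines called against the wild type, 70 genes were farther, 3 back towards, and 4 on the other side. RLE and upper-quartile scaling, a filter of at least 1 CPM in 3 libraries, leaving out the 20 most-counted genes, placement by mean CPM, and the 6 libraries of L14 and L16 without a block (441 genes) each left every count they gave within 1.5 times its value.

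The correlation of same-numbered deviations of L14 and L16 across genes was 0.24, -0.050, and 0.16. For differently numbered libraries it lay between -0.26 and 0.12. Whether the replicate numbers pair the libraries was not tested. With the replicate block the counts were 677, 427, 250, 439, 25, and 212, and in the 6 libraries alone with the block 814, 560, and 254 (all, higher, lower).

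Over the 12 fits that each left out a library, the counts ranged from 86 to 542, 68 to 360, 18 to 182, 54 to 365, 2 to 16, and 29 to 160. Nitab4.5_0000477g0010 passed in 16 of 23 alternatives and Nitab4.5_0000645g0140 in 21, and both other identifiers in all 23. The failures lie in fits without a library of L14 or L16 and, for Nitab4.5_0000477g0010, in the minimum log2 fold change of 1.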

Other observations

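The identifiers carry a scaffold part and a number along the scaffold, which the comparison did not use. The 326 genes lay on 283 of 2996 scaffolds with a tested gene, and 37 scaffolds held at least 2 of them, with at most 4 on any scaffold. The number to be expected for 326 genes drawn from all tested genes was not computed. Of the tested scaffold neighbours of differing genes, 10 of 542 (1.85%) differed too, beside 1.73% of all tested genes. Both members differed in 5 neighbouring pairs, 4 of them with both genes higher in L16. In 1 of these pairs, the neighbour of Nitab4.5_0000786g0230 had a mean of 2.89 CPM in L14, 35.7 CPM in L16, and 4.87 CPM in the wild type (L16 minus L14, log2 fold change 3.62 ± 0.82, SE, adjusted p = 0.034). The L15 libraries held 0.973, 2.96, and 22.3 CPM for this neighbour, the last of them above the lowest L16 library at 21.2 CPM. A further gene of this scaffold was higher in L16 (log2 fold change 1.71 ± 0.30, SE, edgeR's quasi-likelihood test, adjusted p = 0.0075). The other tested genes of the scaffold were not called. Whether neighbours share reads was not tested.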
